A study of Saccharomyces cerevisiae with 23 samples.

Results

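LDS1, LDS2 and RRT8 of budding yeast (Saccharomyces cerevisiae) are paralogues that code for lipid droplet proteins of sporulating cells. They were followed through one synchronised meiosis. The members were taken by systematic name, YAL018C for LDS1, YOL047C for LDS2 and YOL048C for RRT8, and all 3 were found among the 6867 listed genes. All 3 also passed the filter on low values, a mean of at least 1 FPKM over all libraries, as did 6560 genes in all. LDS1 and LDS2 stood in the tables under their systematic names, so RefSeq symbols were used for them.

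The strain, A 33606, carries the constructs pCUP1-IME1 and pCUP1-IME4. In these the copper-responsive CUP1 promoter drives IME1, the master activator of meiotic entry, and IME4, an RNA methyltransferase that acts early in meiosis. All 23 libraries share this genotype. Cells went through YPD and then BYTA medium into sporulation (SPO) medium, and CuSO4 was added after 2 h, at 25 mM per the labels. Total RNA was sequenced at 0 h, every 0.25 h between 2 and 6 h, and at 6.5, 7, 7.5, 8 and 10 h. The 0 h library is from cells without added copper, and the labels place the 2 h library under IME1 and IME4 induction. For tests, consecutive libraries were grouped into windows of 2 to 3 h (n = 5), 3.25 to 4.5 h (n = 6), 4.75 to 6 h (n = 6) and 6.5 to 10 h (n = 5). Each time has 1 library, so a window holds stages of a course, no replicates, and p-values measure only the spread between these libraries. The labels do not say whether libraries came from separate cultures. Values are FPKM, a density of sequenced fragments scaled to transcript length and library size, with the authors' confidence bounds in brackets.

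Lipid droplets store neutral lipids, triacylglycerols and steryl esters, under a single layer of phospholipid. In sporulating yeast some droplets gather along the outer side of the prospore membrane, the double membrane that grows around each haploid nucleus. Lds1, Lds2 and Rrt8 are known from these droplets, and the loss of the family disturbs the dityrosine layer, the outermost layer of the spore wall. Many genes of spore formation are middle genes, which are switched on at the exit from meiotic prophase by the transcription factor Ndt80. Ndt80 binds the middle sporulation element, a short DNA motif that the repressor Sum1 also binds.

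LDS1 lies alone on the minus strand of chromosome I at 118564 to 119541, with 1 coding exon and 325 codons. LDS2 (chromosome XV, 241614 to 242747) and RRT8 (chromosome XV, 240204 to 241310) lie in tandem on the minus strand, with 303 bases between the end of the LDS2 coding sequence and the start of RRT8. Both have 2 coding exons, with 356 codons in LDS2 and 342 in RRT8. Positions are those of the R64 assembly. Aligned coding sequences were 62.8% identical between LDS1 and LDS2, 63.9% between LDS1 and RRT8 and 63.4% between LDS2 and RRT8. The longest identical run was 11 bases, and no 25-base word of any of the 3 coding sequences occurred elsewhere in the genome, so a read of that length from a coding sequence fits 1 place. No other listed gene overlapped them.

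The 300 bases before each coding start are shown because the levels of the 3 genes part ways, as described further on. Sequences come from the RefSeq R64 assembly and are written on the strand of the gene, with matches to the middle sporulation element GNCACAAA in capitals. The regions are chrI:119542-119841 for LDS1, chrXV:242748-243047 for LDS2 and chrXV:241311-241610 for RRT8, all on the minus strand.
LDS1: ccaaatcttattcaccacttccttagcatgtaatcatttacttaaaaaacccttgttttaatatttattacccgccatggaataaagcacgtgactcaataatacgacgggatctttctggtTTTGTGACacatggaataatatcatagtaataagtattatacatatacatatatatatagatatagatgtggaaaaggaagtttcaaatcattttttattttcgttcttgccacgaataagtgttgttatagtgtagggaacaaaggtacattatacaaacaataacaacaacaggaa
LDS2: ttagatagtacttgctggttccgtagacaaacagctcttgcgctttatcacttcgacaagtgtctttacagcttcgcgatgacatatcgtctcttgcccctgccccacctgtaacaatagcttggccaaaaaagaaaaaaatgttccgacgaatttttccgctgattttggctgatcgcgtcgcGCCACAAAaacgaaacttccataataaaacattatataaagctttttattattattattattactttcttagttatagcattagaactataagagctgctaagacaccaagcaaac
RRT8: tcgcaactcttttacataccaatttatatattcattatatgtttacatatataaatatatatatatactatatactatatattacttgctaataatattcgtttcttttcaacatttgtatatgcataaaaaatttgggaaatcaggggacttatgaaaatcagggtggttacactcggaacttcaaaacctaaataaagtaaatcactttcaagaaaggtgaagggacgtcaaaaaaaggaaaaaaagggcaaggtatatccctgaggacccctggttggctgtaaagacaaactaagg
The LDS1 match, TTTGTGAC, lies on the opposite strand, 178 to 171 bases before the coding start. The LDS2 match, GCCACAAA, lies on the strand of the gene, 116 to 109 bases before the coding start. The RRT8 region held no match to GNCACAAA, to the second form GNCGCAAA or to the core CACAAA, which is part of the first form. None of the 3 regions held GCCGCC, the core of the URS1 motif that the early meiotic regulator Ume6 binds. Over the upstream regions of 6001 genes, searched on both strands, 4.12% held GNCACAAA, 3.27% held GNCGCAAA, 19.1% held CACAAA and 5.20% held GCCGCC. These matches describe letters in a window and are not shown to be bound sites.

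**Figure D1:**
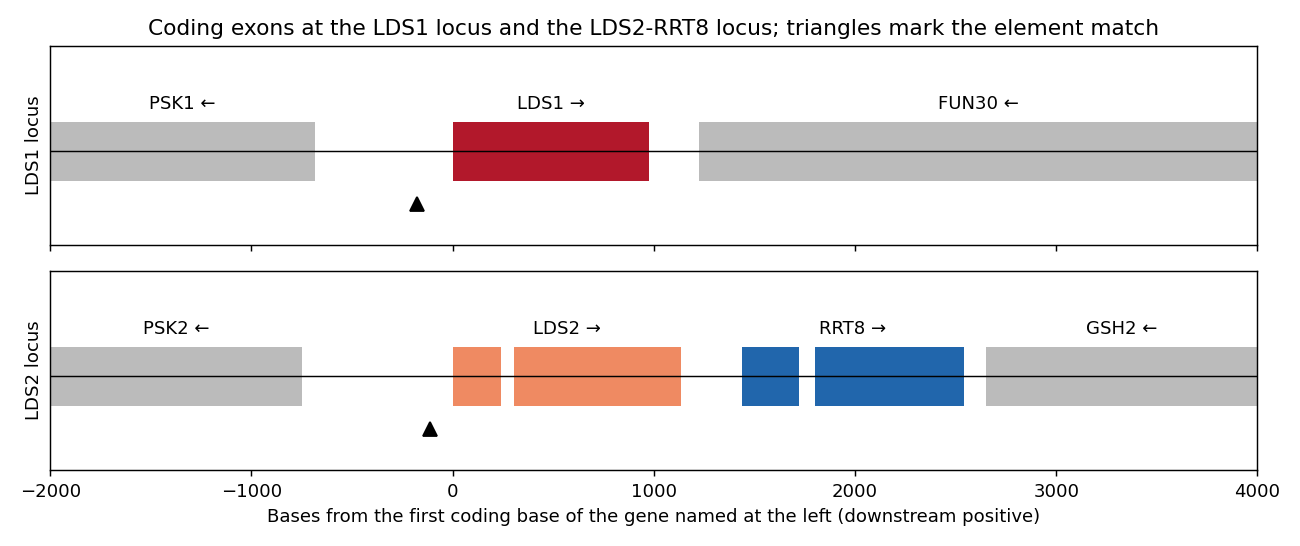
Map of both loci, with the distance in bases from the first coding base of LDS1 (top) and of LDS2 (bottom) on the horizontal axis and downstream to the right. Boxes are coding exons, arrows give the reading direction, and triangles mark the element matches before LDS1 and LDS2. RRT8 follows LDS2 after 303 bases.

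LDS2 and RRT8 share a feature that LDS1 lacks, an intron in the first part of the coding sequence. The introns are shown because the number of exons differs within the family. Capitals mark the splice ends and the branch point core ACTAAC, and the positions are chrXV:242442-242504 for LDS2 (63 bases) and chrXV:240948-241025 for RRT8 (78 bases), on the minus strand.
LDS2 intron: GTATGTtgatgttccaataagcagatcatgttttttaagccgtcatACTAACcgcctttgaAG
RRT8 intron: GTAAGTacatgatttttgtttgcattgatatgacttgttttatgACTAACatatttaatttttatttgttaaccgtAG
The introns start with GTATGT in LDS2 and GTAAGT in RRT8. FPKM per gene does not separate spliced from unspliced RNA, so splicing was not measured here.

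LDS1 had the widest range of the family. It was at 1.18 FPKM in the 0 h library and between 0.359 and 1.59 FPKM in the 5 libraries from 2 to 3 h. At 3.25, 3.5, 3.75 and 4 h its values were 1.27, 0.416, 1.24 and 1.33 FPKM. The authors' bounds imply that each of these 10 early values rests on 1 to 4 fragments, with all lower bounds at 0, so they are at the limit of detection. The 4.25 h library gave 6.47 FPKM [3.42 to 9.53] and the 4.5 h library 8.11 FPKM [4.48 to 11.7]. At 4.75, 5, 5.25, 5.5 and 5.75 h LDS1 stood at 16.7, 31.5, 90.6, 304 and 628 FPKM. The highest library was 6 h, with 1108 FPKM [1065 to 1152], where LDS1 stood above 99.4% of tested genes. The libraries of 6.5, 7, 7.5, 8 and 10 h gave 795, 307, 83.4, 63.8 and 46.3 FPKM. Every library from 4.75 h on lay above every earlier one, and the highest library was 3086 times the lowest, a ratio that rests on about 1 fragment in the lowest.

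LDS2 also had its highest value at 6 h, at a lower level than LDS1. The 0 h library gave 0.700 FPKM, the 2 h library 2.29 FPKM, and those from 2.25 to 3 h between 0.321 and 1.06 FPKM. From 3.25 to 4.5 h its 6 libraries ran between 0.378 and 3.85 FPKM, with a median of 2.48 FPKM. At 4.75, 5, 5.25, 5.5 and 5.75 h LDS2 stood at 10.1, 17.6, 70.6, 179 and 239.6 FPKM. The 6 h library gave 289 FPKM [267 to 310], above 97.1% of tested genes. The libraries of 6.5, 7, 7.5, 8 and 10 h gave 213, 103, 32.5, 60.7 and 46.6 FPKM. As for LDS1, every library from 4.75 h on lay above every earlier one. The highest library was 900 times the lowest, which again rests on about 1 fragment.

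RRT8 was present from the start and moved within a narrow range. Its lowest library was 0 h, with 2.57 FPKM [0.628 to 4.52]. From 2 to 3 h it was at 9.63, 5.67, 8.76, 7.73 and 7.45 FPKM. From 3.25 to 4.5 h it was at 13.5, 12.1, 17.4, 10.8, 19.2 and 14.5 FPKM, all above the 2 to 3 h libraries. From 4.75 to 6 h it was at 23.4, 31.9, 27.3, 30.9, 20.3 and 19.0 FPKM, so that only the 6 h value lay below a library of the window before, by a margin far inside the bounds. From 6.5 to 10 h it was at 27.2, 28.5, 9.95, 20.3 and 33.6 FPKM, with the lowest of these at 7.5 h. The highest deposited value was thus the last library, at 10 h, and was 13.1 times the lowest. The numbers of fragments behind RRT8, 7 to 94.6 per library, set wide bounds, and most neighbouring libraries overlapped in them.

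**Figure D2:**
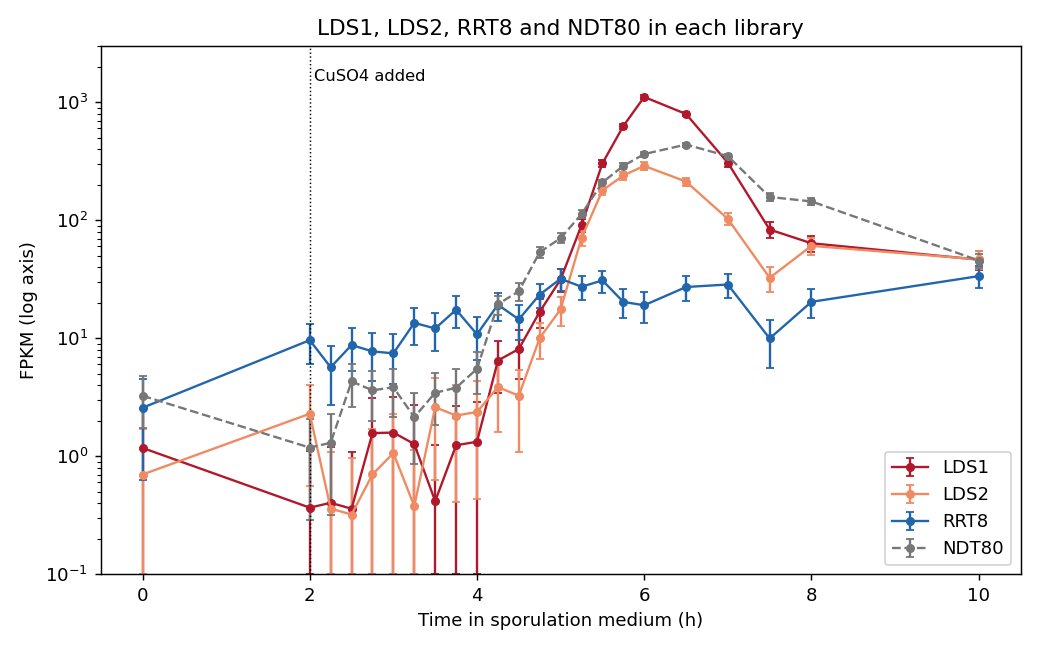
FPKM of LDS1, LDS2, RRT8 and, for comparison, NDT80 (dashed) on a logarithmic axis against hours in sporulation medium, 1 library per point. Bars are the authors' bounds and reach the lower edge where the bound is 0, and the dotted line marks copper addition. LDS1 and LDS2 climb together to 1108 and 289 FPKM at 6 h, while RRT8 stays between 2.57 and 33.6 FPKM.

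The order of the 3 genes turned over between 5 and 5.25 h. RRT8 was highest in all 14 libraries up to 5 h, LDS1 was highest in the 8 libraries from 5.25 to 8 h, and LDS2 and LDS1 stood side by side above RRT8 at 10 h. The bounds of RRT8 lay wholly above those of LDS1 in 10 libraries, from 2 to 4.25 h, and above those of LDS2 in 13, from 2 to 5 h. From 5.25 to 8 h, both LDS1 and LDS2 lay wholly above RRT8. At 0 h and at 10 h the bounds of all neighbours in the order overlapped. LDS1 lay wholly above LDS2 in 7 libraries, at 5 h and from 5.5 to 7.5 h, LDS2 never lay wholly above LDS1, and in the other 16 libraries the bounds overlapped. Of the summed FPKM of the family, RRT8 made up 92.8% at 2.5 h, 1.34% at 6 h and 26.6% at 10 h, while LDS1 made up 3.80%, 78.3% and 36.6% in the same libraries.

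Levels in FPKM are shares of what was sequenced, and the libraries differed in this respect. The middle one of the tested genes had 19.5 FPKM at 4.75 h, the most of any library, and 2.55 FPKM at 7.5 h, the least. Ranks within a library do not depend on this. RRT8 stood above 19.4% of tested genes at 0 h, 43.8% at 2 h, 51.1% at 3.25 h and 69.7% at 5 h, and above 74.9% to 79.5% in every library from 6.5 h on, the low 7.5 h library included. LDS1 stood above 4.47% to 9.91% of genes up to 4 h and LDS2 above 4.33% to 15.9% up to 4.5 h. After median-of-ratios scaling, which divides each library by the median ratio of its genes to their geometric mean, RRT8 peaked at 7 h with 53.1 and was at 34.6 at 10 h on the scaled FPKM axis. The 6 h maxima of LDS1 and LDS2 stayed at 6 h under this scaling. LDS2 was higher at 8 h than at 7.5 h as deposited, and this turned round after scaling, with 86.7 at 8 h and 126 at 7.5 h.

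**Figure D3:**
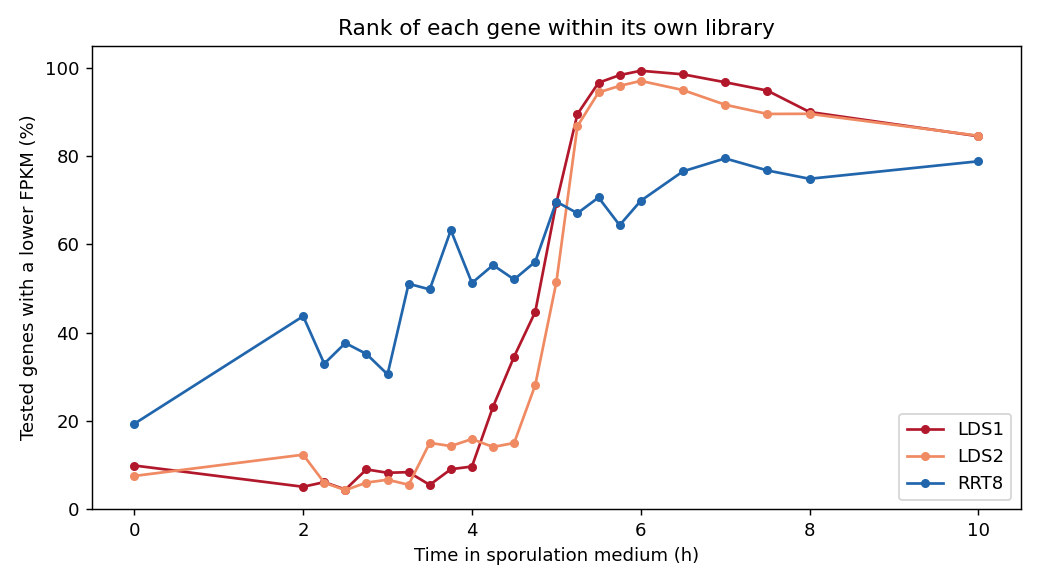
Share of the 6560 tested genes with a lower FPKM in the same library, in percent, against hours in sporulation medium, for LDS1, LDS2 and RRT8. LDS1 and LDS2 lie below 16% up to 4 h and reach 99.4% and 97.1% at 6 h, and RRT8 runs between 19.4% and 79.5% over the course.

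Whether each gene changed between 2 and 10 h was asked with limma's moderated F test of a smooth curve (a spline) over 22 libraries, on log2(FPKM + 1). LDS1 rose over a fitted range of 8.36 log2 units (limma adjusted p = 3.33e-08), LDS2 over 6.79 (limma adjusted p = 1.02e-07) and RRT8 over 1.80 (limma adjusted p = 0.000174). All 3 were called as rises, where a call needs an adjusted p under 0.05 and a range of at least 1. A rise here means that the highest fitted point lay at least as far from the fit at 2 h as the lowest. A later fall can follow, as for LDS1 and LDS2. Their fitted curves were highest at 6.95 and 7.05 h, later than their highest library at 6 h. Of all tested genes, 31.1% were called as rises, so such a call is common in this course. The scale understates changes of low genes such as early LDS1 and LDS2. In bulk RNA, a higher level can come from more cells at a stage or from more RNA per cell, and these cannot be told apart.

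The steps between windows show where the changes lay. In the 4.75 to 6 h libraries against the 3.25 to 4.5 h libraries, LDS1 rose, averaging 363 ± 432 FPKM in the later window and 3.14 ± 3.27 FPKM in the earlier one (SD, n = 6 each). Its log2 change was 5.53 ± 0.86 (SE, limma adjusted p = 0.000697). LDS2 rose by 4.55 ± 0.66 (SE, limma adjusted p = 0.000431) in the same contrast. RRT8 was higher by 0.76 ± 0.26 (SE, limma adjusted p = 0.122), which did not pass. So 2 of the 3 genes were called as rises, against 3.22% of tested genes. After median-of-ratios scaling 1.11% of tested genes were called as rises, and LDS1 (5.32) and LDS2 (4.34) were again among them. The large SD of the later window comes from the climb within it.

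In the step before, from 3.25 to 4.5 h against 2 to 3 h, none of the 3 genes was called, against 0.229% of tested genes called in either direction. The log2 changes were 0.87 ± 0.90 for LDS1, 0.81 ± 0.70 for LDS2 and 0.81 ± 0.27 for RRT8 (SE, limma adjusted p = 0.787, 0.726 and 0.238). RRT8 had the smallest error of these, and its 6 later libraries all lay above the 5 earlier ones in FPKM. The error of each gene is pooled over all windows. For LDS1 and LDS2 it therefore includes the climb and fall from 4.75 h on, and it does not measure the early spread alone. In the last step, 6.5 to 10 h against 4.75 to 6 h, none was called either. The changes were -0.05 for LDS1, -0.03 for LDS2 and -0.16 for RRT8 (limma adjusted p = 0.970, 0.974 and 0.635), while 47.9% of tested genes were called, 43.8% as falls and 4.09% as rises, and the median gene was at -0.99. After median-of-ratios scaling the median gene was at -0.06 and the changes of LDS1, LDS2 and RRT8 were 1.14, 1.14 and 0.99. Only RRT8 had a limma adjusted p under 0.05 there (0.000369), with a change just short of the 1 that a call needs. The direction of this step therefore depends on the scaling for all 3 genes. For LDS1 and LDS2 both windows hold high and low values.

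A ratio of 2 members within a library does not depend on the scaling between libraries, except through the 1 FPKM added to low values. Such ratios were compared between windows with 9 exact two-sided permutation tests over libraries. The log2 ratio of LDS1 to RRT8 averaged 2.52 ± 2.56 from 4.75 to 6 h and -2.24 ± 0.96 from 3.25 to 4.5 h (SD, n = 6 each). The difference of 4.77 had exact permutation p = 0.00216, the smallest that 6 against 6 libraries can give, and adjusted p = 0.00974 over the 9 tests. The log2 ratio of LDS2 to RRT8 averaged 1.54 ± 2.14 from 4.75 to 6 h and -2.25 ± 0.62 from 3.25 to 4.5 h (SD, n = 6 each), with the same exact p and adjusted p. In both ratios every later library lay above every earlier one. The windows were chosen with earlier results of these data known. Any steady climb across a border gives that order, so the p shows no more than the order itself. The log2 ratio of LDS1 to LDS2 averaged 0.99 ± 0.57 from 4.75 to 6 h and 0.01 ± 0.95 from 3.25 to 4.5 h (SD, n = 6 each; exact permutation p = 0.0628, adjusted p = 0.188). With 10 FPKM added in place of 1, this difference was 0.84 and passed (exact permutation adjusted p = 0.0195). From 3.25 to 4.5 h LDS1 and LDS2 reached at most 8.11 and 3.85 FPKM, so the 10 FPKM added draws their earlier ratios toward 0. That pass therefore does not show a change in the ratio. The earlier mean rests on a few fragments, so an equal ratio is not shown. The other 6 tests, of the first and last steps, had adjusted p = 1.00 each.

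**Figure D4:**
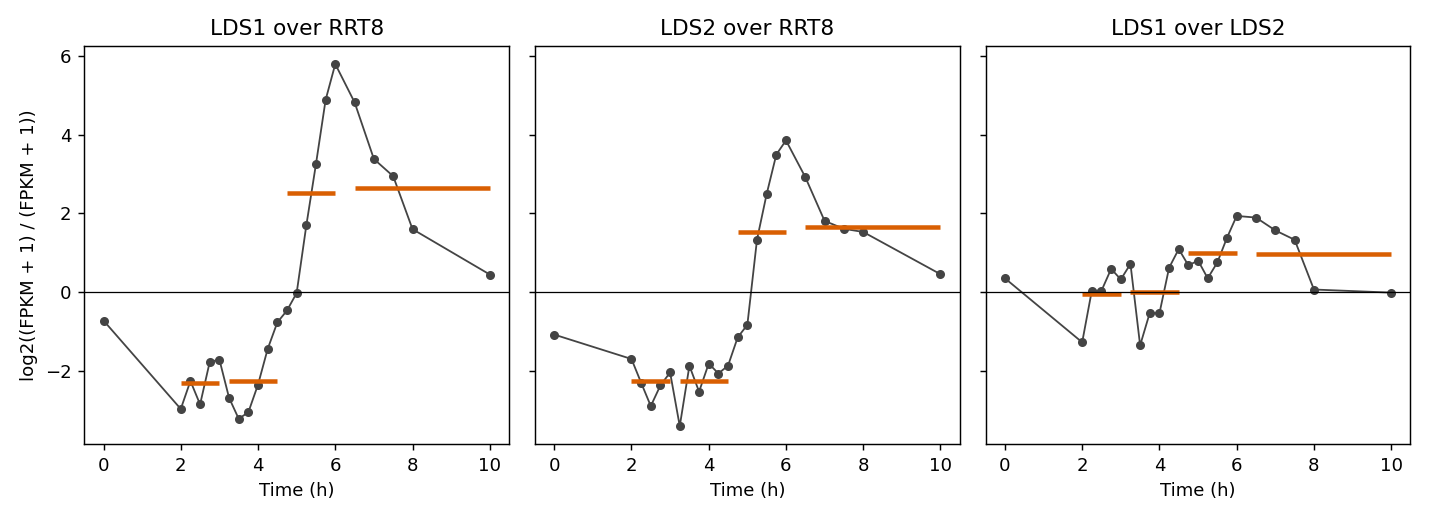
Log2 ratio of FPKM + 1 for LDS1 over RRT8, LDS2 over RRT8 and LDS1 over LDS2, against time in hours, 1 library per point, with bars at the window means. The first 2 panels cross 0 after 5 h and reach 5.79 and 3.85 at 6 h, and the third reaches 1.94 at 6 h and lies near 0 at 8 and 10 h.

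Within the climb the ratio of LDS1 to LDS2 in plain FPKM was 1.28 at 5.25 h, 1.70 at 5.5 h, 2.62 at 5.75 h and 3.84 at 6 h. It was 3.74 at 6.5 h, 2.99 at 7 h, 2.57 at 7.5 h, 1.05 at 8 h and 0.995 at 10 h. Of these libraries the ratio was highest at 6 h, the shared maximum. The pace of the climb was fitted, after the values were seen, as a straight line of log2 FPKM over the 6 libraries from 4.75 to 6 h. LDS1 climbed by 5.14 ± 0.29 log2 units per hour, a doubling in 11.7 minutes, and LDS2 by 4.21 ± 0.59, a doubling in 14.2 minutes (SE of the line). NDT80 climbed by 2.38 ± 0.16 over the same libraries, and RRT8 had a slope of -0.37 ± 0.28. From 6 to 7.5 h the slopes were -2.51 ± 0.45 for LDS1, -2.10 ± 0.39 for LDS2, -0.55 ± 0.66 for RRT8 and -0.79 ± 0.45 for NDT80 (SE of the line over 4 libraries). Without the 7.5 h library, the one with the lowest middle gene, the slope of LDS1 was -1.85 and that of LDS2 -1.49. These slopes are on FPKM as deposited, over libraries in which the middle gene fell as well. The 6 h value over the 4.75 h value was 66.2 for LDS1, 28.7 for LDS2, 0.812 for RRT8 and 6.78 for NDT80 as deposited, and 152, 65.7, 1.86 and 15.5 after median-of-ratios scaling. The 7.5 h value over the 6 h value was 0.0752 for LDS1, 0.113 for LDS2, 0.523 for RRT8 and 0.433 for NDT80 as deposited, and 0.234, 0.350, 1.63 and 1.35 after scaling. The direction therefore turned with the scaling for RRT8 in both stretches and for NDT80 in the later one, while LDS1 and LDS2 kept theirs.

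The comparison of 2 h with 0 h has 1 library on each side and no test. RRT8 had 9.63 FPKM [5.99 to 13.3] at 2 h, against 2.57 FPKM [0.628 to 4.52] at 0 h, a ratio of 3.74 with bounds that do not overlap. After median-of-ratios scaling the ratio was 2.79. LDS1 had 0.367 FPKM [0 to 1.10] at 2 h, against 1.18 FPKM [0 to 2.53] at 0 h. LDS2 had 2.29 FPKM [0.559 to 4.02] at 2 h, against 0.700 FPKM [0 to 1.69] at 0 h. The bounds of both overlap between the libraries. The bounds cover counting error, and differences between cultures or extractions are not in them.

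The genes with the most similar course were ranked by Pearson's r of log2(FPKM + 1) over the 23 libraries, among 3728 genes of at least 300 bases and a mean of at least 10 FPKM. The libraries come from one course, so the values describe it and carry no p. LDS1 and LDS2 had r = 0.978 with each other, with a Spearman rho of 0.933, and RRT8 had r = 0.685 with LDS1 and 0.727 with LDS2. LDS1 was most like SPO21, a meiotic spindle pole component (r = 0.987). Also among its 5 nearest genes were YDL186W (r = 0.985), YGL138C (0.981) and SSP1, which acts at the rim of the growing prospore membrane (0.980). The nearest genes of LDS2 included YDL186W (r = 0.973), the polo kinase gene CDC5 (0.971), SSP1 (0.968) and SPO74, another meiotic spindle pole component (0.966). Of the length of YDL186W, 26.7% is overlapped by another listed gene. The named genes, SPO21, YDL186W, YGL138C, SSP1, CDC5 and SPO74, were at 389, 588, 319, 391, 447 and 662 FPKM in the 6 h library.

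RRT8 had fewer close matches. Its nearest were SGV1, a cyclin-dependent kinase of transcription (r = 0.913), PBY1, a P-body protein (0.905), SVL3 (0.899), SAK1, a kinase that activates Snf1 (0.889), and HES1, an oxysterol-binding protein (0.880). The highest levels of these 5 genes ran from 20.8 FPKM for SGV1 to 64.7 FPKM for HES1. At r of 0.9 or more, LDS1 had 107 genes, LDS2 had 82 and RRT8 had 2. RRT8 spans a narrower range than LDS1 and LDS2, on 7 to 94.6 fragments per library. How far counting error lowered its r was not tested. Either form of the middle sporulation element stood in the upstream region of 5 of the 5 genes nearest to LDS1, 5 of the 5 nearest to LDS2, which share 3 genes with them, and 0 of the 5 nearest to RRT8. Over all 6001 upstream regions the share was 7.23%.

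NDT80, which codes for the activator of the middle genes, had at most 5.51 FPKM up to 4 h, and 19.4 FPKM in the 4.25 h library, the one in which LDS1 first had a lower bound above 0. Its highest library was 6.5 h, at 438 FPKM, after the 6 h maxima of LDS1 and LDS2. NDT80 had r = 0.975 with LDS1, 0.953 with LDS2 and 0.720 with RRT8. SUM1, the gene of the repressor, had 6.31 FPKM in the first library and 41.6 FPKM in the last, its lowest and highest. The course between was not steady, with 33.3 FPKM at 4.75 h, 13.4 at 6 h, 6.82 at 7.5 h and 41.2 at 8 h. After median-of-ratios scaling SUM1 was highest at 8 h, at 58.9. The induced genes served as a check of the labels. IME1 was at 818 FPKM and IME4 at 89.7 FPKM in the 2 h library, 20.3 and 14.8 times their 0 h values. They were at 7908 and 2615 FPKM in the 2.25 h library, so most of their rise in FPKM came after the 2 h library. In the 2.5 h library IME1 had 9734 FPKM and IME4 2950 FPKM, against 40.4 and 6.08 FPKM before copper at 0 h.

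Values of the nearest listed genes follow. Beside LDS1, the chromatin remodeller gene FUN30 ran between 3.51 and 13.5 FPKM and PSK1, a kinase gene read away from LDS1, between 4.55 and 25.2 FPKM. From 4.75 to 6 h against 3.25 to 4.5 h neither passed (log2 change 0.43 and 0.45, limma adjusted p = 0.599 and 0.442). GSH2, a gene of glutathione synthesis that ends 109 bases from the end of RRT8, fell in the 6.5 to 10 h libraries against the 4.75 to 6 h libraries by 2.97 on the log2 scale (limma adjusted p = 2.75e-06). On the other side of LDS2, YOL046C is 95.4% covered by another listed gene, and its level is uncertain without strand. The tandem neighbours LDS2 and RRT8 themselves differed in course. By their bounds RRT8 lay wholly above LDS2 from 2 to 5 h, and LDS2 wholly above RRT8 from 5.25 to 8 h.

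The family was set beside lists of genes for neutral lipids, droplets and the spore wall. From 4.75 to 6 h against 3.25 to 4.5 h, none of 10 genes of neutral lipid synthesis was called, and their median log2 change was 0.18. Of 10 genes of neutral lipid breakdown 1 rose, with a list median of 0.52. This was YEH1, a steryl ester hydrolase, with a log2 change of 2.95 (limma adjusted p = 0.0147), which was not called after median-of-ratios scaling, at 2.79 (limma adjusted p = 0.0758). Without the 5.75 h library its adjusted p was 0.0537 (limma), so the call was narrowly lost there as well. The triacylglycerol lipase genes TGL4 and TGL3 were at 1.36 and 1.25 and did not pass. Of 20 genes of lipid droplet assembly and coat none was called, with a median of 0.12. The median of all tested genes was 0.14. Of all tested genes 3.22% were called as rises in this step, so the counts of these 3 lists lay near the background.

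The outer spore wall and middle genes gave other counts. Of 28 outer spore wall genes 18 rose in this step, with a median log2 change of 3.21, and 13 rose after median-of-ratios scaling, against 3.22% of all tested genes and 1.11% after scaling. The largest changes were IRC18, also called OSW6 (5.46, limma adjusted p = 0.000974), the chitin deacetylase genes CDA2 (4.97, limma adjusted p = 0.000974) and CDA1 (4.24, limma adjusted p = 0.000479), and OSW1 (4.35, limma adjusted p = 0.000916). DIT1, which makes a precursor of dityrosine, was at 0.87 and did not pass. Of 25 middle genes known as targets of Ndt80 22 rose, with a median of 3.99, and 16 rose after scaling, against the same shares of all tested genes. SPS4 (5.84) and SPS2 (5.56), both named for sporulation-specific transcripts, had the largest changes of that list. The change of LDS1, 5.53, lay above that of each wall gene and below those of SPS4 and SPS2, and that of LDS2, 4.55, lay above both list medians. Either form of the element stood upstream of 13 of the 28 wall genes, 15 of the 25 middle genes and none of the genes of the 3 lipid lists, against 7.23% of all regions. The wall and middle lists share several genes, and the droplet and wall lists also share a gene. The middle list holds genes known to rise at this stage.

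In the last step, 6.5 to 10 h against 4.75 to 6 h, the lists differed in their counts. Of the 20 droplet genes 16 fell, against 43.8% of all tested genes, with a median of -1.95 where all genes were at -0.99. Among them were SRT1, a prenyltransferase gene (-4.32, limma adjusted p = 0.000144), ERG6, a sterol methyltransferase gene (-3.18, limma adjusted p = 0.000266), PLN1, a perilipin-like coat protein gene (-3.09, limma adjusted p = 2.47e-05), and FAA1, an acyl-CoA synthetase gene (-2.90, limma adjusted p = 5.98e-06). After scaling, 9 fell and 1 rose, with a median of -1.05, and of all tested genes 17.1% fell and 15.8% rose. Of the synthesis genes 3 fell, ARE2 for steryl esters (-3.67), SPO7 (-1.59) and DGA1 for triacylglycerols (-1.36), and of the breakdown genes TGL5 rose (2.31) while AYR1 (-2.54) and MGL2 (-1.42) fell. DGA1 and MGL2 were not called after scaling, and 4 breakdown genes rose, TGL3 and TGL4 among them (2.26 and 1.76). Of the wall genes 14 rose and 1 fell, against 4.09% of tested genes called as rises, with SPS1 (4.34), RRT12 (3.64), GAS2 (3.42) and OSW1 (3.38) ahead, and 18 rose after scaling. Of the middle genes 12 rose, and 19 after scaling. LDS1, LDS2 and RRT8, at -0.05, -0.03 and -0.16, lay between the droplet list and the wall list.

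**Figure D5:**
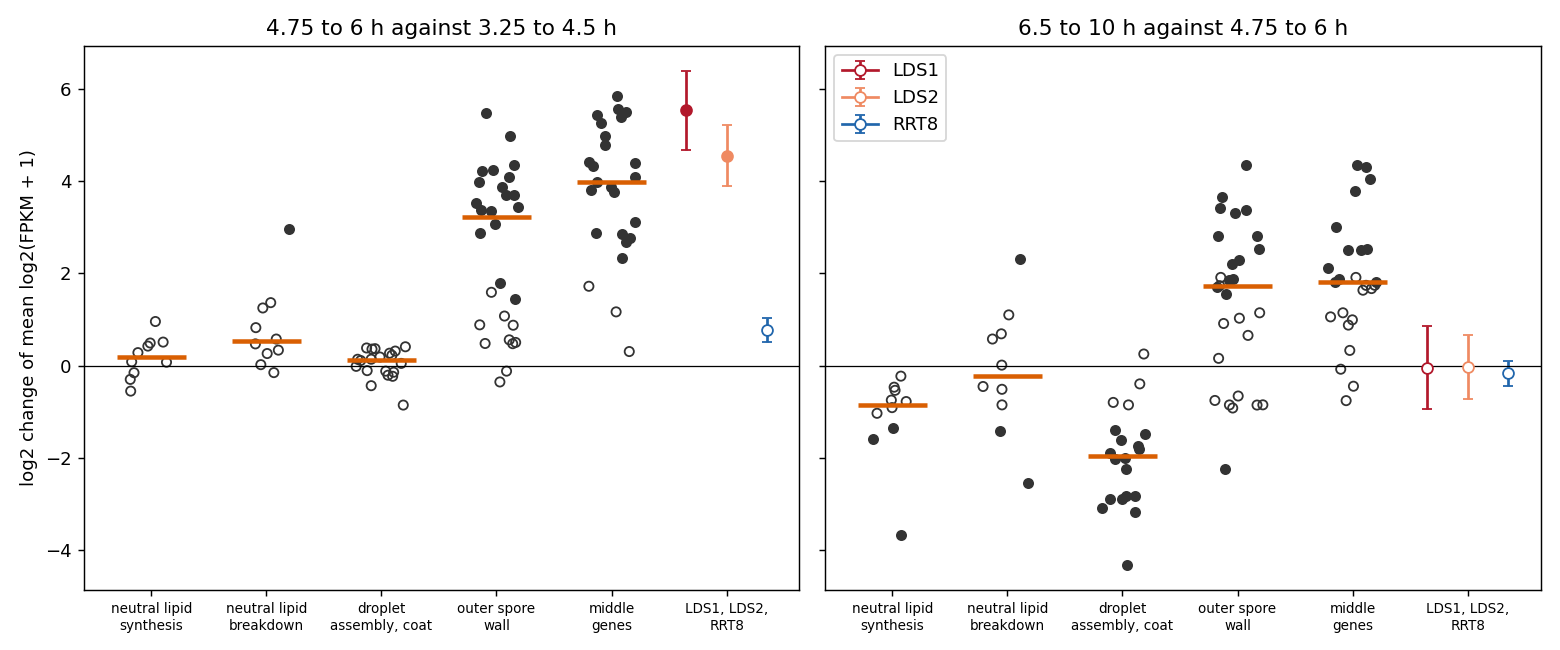
Log2 change of mean log2(FPKM + 1) for each gene of 5 lists and for LDS1, LDS2 and RRT8, for 4.75 to 6 h against 3.25 to 4.5 h (left) and 6.5 to 10 h against 4.75 to 6 h (right). Filled points were called, bars across a list are its median, and bars on the members are the SE. On the left LDS1 and LDS2 lie with the wall and middle genes and RRT8 lies at 0.76, and on the right all 3 lie near 0, above the median of the droplet genes and below that of the wall genes.

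These differences were tested, after the values were seen, as each member minus the list median within a library, in 12 exact two-sided permutation tests over libraries. From 4.75 to 6 h against 3.25 to 4.5 h, LDS1 and LDS2 had exact permutation p = 0.00216 against both lists. This is the smallest that 6 against 6 libraries can give. Any steady climb across the border gives it, so it shows no more than the order already seen. From 4.75 to 6 h LDS1 exceeded the wall list by 2.16 ± 0.76 log2 units, and from 3.25 to 4.5 h its distance was -0.42 ± 0.68 (SD, n = 6 each). The difference was 2.58 (exact permutation adjusted p = 0.00649), and for LDS2 it was 1.59 (exact permutation adjusted p = 0.00649). In the last step this turned round, with -1.79 for LDS1 (exact permutation adjusted p = 0.0260) and -1.78 for LDS2 (exact permutation adjusted p = 0.00866). For LDS1 the late result was lost without the 7.5, 8 or 10 h library (exact permutation adjusted p = 0.0508 each). RRT8 fell behind the wall list in the first of these steps (-2.19, exact permutation adjusted p = 0.0186), and its late difference of -1.91 did not pass (exact permutation adjusted p = 0.0623). Without the 6 h library this late difference was -2.40 and passed (exact permutation adjusted p = 0.0272). With a pseudocount of 10 the late result of LDS1 and the -2.19 of RRT8 did not pass (exact permutation adjusted p = 0.0584 and 0.0675).

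The same tests were made against the list of droplet assembly and coat. LDS1 gained 5.52 and LDS2 4.54 on the list in the 4.75 to 6 h libraries against the 3.25 to 4.5 h libraries (exact permutation adjusted p = 0.00649 each). Their later differences of 1.54 and 1.56 did not pass (exact permutation adjusted p = 0.346 and 0.260). The distance of RRT8 from the list averaged 1.20 ± 0.34 log2 units from 6.5 to 10 h (SD, n = 5) and -0.23 ± 0.42 from 4.75 to 6 h (SD, n = 6). This difference, 1.43, passed (exact permutation adjusted p = 0.00866), also without any 1 library. Its difference of 0.75 in the step before had exact permutation adjusted p = 0.0317 and was lost without any 1 of 7 libraries, those of 3.25, 3.5, 4.5, 5, 5.5, 5.75 and 6 h, where adjusted p lay between 0.0519 and 0.0623, and with a pseudocount of 10 (0.0557). In the late step 16 of the 20 listed genes fell, the median of all tested genes was at -0.99, and RRT8 itself was at -0.16. So RRT8 also gained on the median tested gene, and its gain is not particular to the droplet list.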

How the data were processed

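Libraries were prepared from total RNA (Ambion Ribopure extraction, NuGen Ovation universal RNA-seq, random hexamer priming), per the labels' protocols. For each library the authors deposited gene-level FPKM beside lower and upper bounds, per the file headers. Per the submitters' processing notes, the tools were Bowtie and Cufflinks 2.2.1 and the builds R64 and sacCer3. The version of Bowtie, the gene annotation and whether strand was used were not given in the sources used here; without strand, antisense reads would count toward a gene. The mapped total of a library is not in the tables, so depth is given per value: the implied number of fragments is (2F / (U - F)) squared for an FPKM F with upper bound U, if they lie 2 counting standard errors out. They cover counting error only.

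Each table has 7132 rows, of which 6867 were used; 11 with too many fragments for an estimate and 254 that name no gene were dropped. RefSeq knew 6022 of the 6716 systematic names, 99.4% of these at an identical position, so its R64 assembly was used for sequences. Members were tested inside fits of every gene averaging 1 FPKM or more (6560 genes), on log2(FPKM + 1), which understates changes of low genes, with limma 3.58.1 in R 4.3.3 (eBayes with trend, two-sided). The curve over time was a natural cubic spline (4 df) through the 22 libraries from 2 h on, and the windows used the same libraries. Calls required a Benjamini-Hochberg adjusted p below 0.05 together with a log2 change of 1 or more in size. Residuals of the spline had a median lag-1 autocorrelation of 0.05. Ratios and distances were compared by exact permutation over libraries (SciPy 1.17.1). The limma script was first tested on simulated data.

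Genes named are the members, IME1, IME4, NDT80 and SUM1, nearest neighbours, the 5 genes most like each member, and per list and step up to 4 genes with the largest changes, called or not; some are left unnamed, and 1 of the similar genes is not reported here. Members, lists, windows and tests were chosen with earlier results of these data known, and the slopes and distances from list medians after seeing their values. Alternatives covered pseudocounts, the filter, scaling between libraries, spline df, window borders and single libraries left out.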

Additional observations from a re-analysis of the deposited data

Results flagged for a closer look

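LDS2 at 3.25 h, at 0.378 FPKM, stood apart from the other 5 libraries of its window, of which the nearest was 2.21 FPKM. On the log2(FPKM + 1) scale its gap to the nearest library was 0.672 of the range of the window. This is past Dixon's 95% critical value of 0.625 for 6 samples. The flag holds on that scale and not on plain FPKM. The value rests on about 1 fragment. In all 12 groups were examined in this way, and chance flags about 1 in 20.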

How the results depend on the processing

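The calls of LDS1, LDS2 and RRT8 over time and in the step of 4.75 to 6 h against 3.25 to 4.5 h kept their direction and side of the threshold under every alternative run, leaving out each library included. After quantile normalisation the limma adjusted p of RRT8 was 0.0432 in that step (log2 change 0.62) and 0.0153 in the step before (0.80), and neither was called because the change was under 1. Counts over all genes moved: for 3.25 to 4.5 h against 2 to 3 h, 15 genes became 33 with a pseudocount of 10, 64 after median-of-ratios scaling, 133 after quantile normalisation, and 6 and 51 with borders 1 library later and earlier; for 4.75 to 6 h, 222 became 101, 102 after scaling, and 363 and 80 with moved borders; for 6.5 to 10 h, 3144 became 1422 with a pseudocount of 10 and 1990 after quantile normalisation. Leaving out 1 library gave 0 to 48 for the first of these contrasts, moved by any of 15 libraries, and 98 to 314 for the second, under 150 without any 1 of 3.25, 3.5, 3.75, 4, 5.5, 5.75 or 6 h. In the last step LDS1 was at 1.14 after scaling, 0.34 after quantile normalisation and 1.60 with earlier borders, LDS2 at 1.14, 0.53 and 1.31, and RRT8 at 0.99 and 0.66 after scaling and quantile normalisation. Without 1 library they ran from -0.66 to 0.53, -0.59 to 0.35 and -0.31 to 0.11, RRT8 being positive without 7.5 h.

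The called ratios held. A pseudocount of 10 exceeds every LDS1 and LDS2 value up to 4.5 h, so it draws the ratio of these genes toward 0 there. With it LDS2 itself moved by 0.18 in the first step and RRT8 by 0.46, so their ratio mostly follows RRT8. With a pseudocount of 10 the step of LDS1 to LDS2 was 0.84 (exact permutation adjusted p = 0.0195), and ratios near 0 changed sign: LDS1 to LDS2 0.021 in the last step, LDS1 to RRT8 -0.21 and -0.012 and LDS2 to RRT8 -0.27 (exact permutation adjusted p = 0.0390) and -0.034 in the first and last steps. With later borders they were -0.077 (LDS1 to LDS2, first step), -1.31 and -0.86 (to RRT8, last step), and with earlier borders 0.29 (LDS1 to LDS2, last step). Without 1 library the first step ran from -0.25 to 0.33 (LDS1 to LDS2), -0.24 to 0.25 (LDS1 to RRT8) and -0.16 to 0.23 (LDS2 to RRT8), and the last from -0.25 to 0.23, -0.48 to 0.77 and -0.40 to 0.59. The fall slope of RRT8 ran from -1.45 to 0.58.

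With a pseudocount of 10, LDS1 minus the wall list in the last step (-1.50), and RRT8 minus the wall list (-1.27) and minus the droplet list (0.50) in the step before, no longer passed (exact permutation adjusted p = 0.0584, 0.0675 and 0.0557). Without 1 library these ran from -2.22 to -1.51 for LDS1 and from 0.64 to 0.91 for RRT8 and the droplet list, and the last step of RRT8 and the wall list from -2.40 to -1.50. The first library at 5 FPKM was 4.25 h for LDS1 and 2 h for RRT8, at 10 FPKM 4.75 h for LDS1 and LDS2 and 3.25 h for RRT8, and at 20 FPKM 5.25 h for LDS2 and 4.75 h for RRT8. Of the 5 most similar genes, 3 were shared for LDS1 and 2 for LDS2 with a pseudocount of 10, and for RRT8 2 after scaling and 3 from 2 h on. The causes were not tested. No paired analysis was possible because each time has 1 library. Early LDS1 and LDS2 values rest on a few fragments, which limits any statement on them before 4.25 h.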
